A study of Mus musculus with 22 samples.

Results

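Bone morphogenetic proteins (BMPs) and the secreted proteins that block or modulate them are described here through 9 genes: Bmp1, Bmp2, Bmp4, Bmp5, Bmp6, Grem1, Nog, Bmper and Gdf10. The genes were chosen by symbol and matched to Ensembl identifiers, and they are 9 of the 41388 genes in the deposited count files. Of the 9, 8 passed the filter on low counts (over 1 CPM, a read count scaled to library size, in 2 or more libraries) and so are among the 15020 genes tested, and Nog did not. The RNA came from cells sorted out of mouse tumors by tdTomato (TdT), which marks cells with a history of the Osx-cre transgene, and by the leukocyte surface protein CD45. The 4 sorted populations are TdTOSX single positive (TdT+;CD45-), double positive (TdT+;CD45+), CD45 single positive (TdT-;CD45+) and double negative (TdT-;CD45-). Each was taken from mice labelled wild type (Osx-cre;Ai9) and from mice labelled Cdh2-cKO (Cdh2-cKO;Ai9), all C57BL/6 at postnatal day 56, which gave 2 TdTOSX single positive libraries and 3 of each other population per genotype, 22 in all. Osx-cre expresses Cre from the promoter of Sp7, which encodes the osteoblast transcription factor Osterix, and doxycycline represses it, while Ai9 places tdTomato at Rosa26 behind a stop that Cre removes. Both genotypes carry the reporter. The labels state neither which Cre deletes Cdh2, the gene of N-cadherin, nor which exon is lost. The labels name an orthotopic MMTV-BO1 tumor, the design given for the deposit a subcutaneous one, and the study's Results section subcutaneous PyMT-BO1 cells grown for 2 weeks. These tumor cells carried GFP, and according to the methods they were sorted away from the stroma. According to the labels, tumor cells went into 6 mice of the Cdh2-cKO;Ai9 and 4 of the Osx-cre;Ai9 genotype, and preparations were kept by RNA integrity, with an average RIN of 8.95. The libraries hold between 16594228 and 26784003 reads assigned to genes. At that depth the smallest level taken as present, 3 counts in a library, lay between 0.1003 and 0.201 normalized CPM, and such floors and all intervals cover counting error only.

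The labels were checked against the counts of 3 genes. Ptprc, which encodes CD45, lay at 2.40 to 338 with a median of 27.5 normalized CPM over the 10 CD45- libraries and at 466 to 1694 with a median of 549 over the 12 CD45+ libraries, without overlap. The double negative library labelled wild type replicate 3 stood highest on the CD45- side, with 338 normalized CPM of Ptprc and a sum of 8076 over 7 pan-leukocyte markers, against 217 and 1322 in the other double negative libraries of that genotype. The CD45 single positive library labelled wild type replicate 2 also stood apart, with a T cell marker sum of 2605 and a macrophage marker sum of 3469.8 normalized CPM, the highest and the lowest of the 12 CD45+ libraries. Leaving both out together kept each call of a BMP gene, and the log2 fold changes between CD45- and CD45+ cells were then 5.95 for Bmp1, 6.84 for Grem1 and 6.93 for Bmper, beside 5.77, 6.37 and 6.35 with all 22. Sp7 had no count in any of the 10 TdT+ libraries, 2 counts in the double negative and 1 in the CD45 single positive libraries, so the gene whose promoter drives Cre was not detectable at this depth in the sorted TdT+ cells. Cdh2 had 8.97 and 4.90 normalized CPM in the TdTOSX single positive libraries labelled wild type and 16.8 and 12.5 in those labelled Cdh2-cKO. In double negative libraries it had 6.18, 7.48 and 4.52 against 13.1, 19.2 and 14.6. Cdh2 was therefore not lower in the CD45- libraries labelled Cdh2-cKO, and its log2 fold changes, 1.08 (SE 0.84, adjusted p = 0.661) in TdTOSX single positive and 1.37 (SE 0.69, adjusted p = 0.600) in double negative cells, did not pass the test. Counts over a whole gene do not show the loss of 1 exon, so the genotypes are given below as labelled.

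As background, BMPs are secreted ligands of the TGF-beta superfamily that assemble type I and type II receptor kinases, which phosphorylate SMAD1, SMAD5 and SMAD9 so that these enter the nucleus with SMAD4 and switch on genes such as those of the ID family. Noggin and gremlin bind the ligands outside the cell and keep them from their receptors, and BMPER, the relative of a fly crossveinless protein, can dampen or aid the signal depending on the setting. The pathway is best known for forming bone and cartilage, and in tumors stromal cells make both ligands and antagonists.

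On GRCm38, Bmp2 (ENSMUSG00000027358, chr2:133552159-133562885 on the plus strand) and Grem1 (ENSMUSG00000074934, chr2:113746164-113758646 on the minus strand) share chromosome 2. Chromosome 14 carries Bmp4 (ENSMUSG00000021835, chr14:46383520-46390669 on the minus strand), Gdf10 (ENSMUSG00000021943, chr14:33923587-33935280 on the plus strand) and Bmp1 (ENSMUSG00000022098, chr14:70474557-70520260 on the minus strand). Chromosome 9 carries Bmper (ENSMUSG00000031963, chr9:23223076-23485202 on the plus strand) and Bmp5 (ENSMUSG00000032179, chr9:75775364-75900310 on the plus strand). Bmp6 (ENSMUSG00000039004, chr13:38345716-38499728 on the plus strand) and Nog (ENSMUSG00000048616, chr11:89300638-89302332 on the minus strand) each stand alone. Of the exonic bases of Bmp5, 1878 of 4025 (46.7%) also belong to Gm26903 on the opposite strand, and for Bmp4 the figure is 89 of 2224 (4.00%) with Gm15217. Since the authors kept unambiguous reads only, reads in such stretches may be missing from the counts of both genes, and no exon of the other 7 genes is shared.

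RefSeq promoters (GRCm38.p6) were found for 6 of the 9 genes, and not for Bmp1, Bmp2 and Nog. The 250 bases before the start are printed for the 4 of these 6 with the most counts, since these genes were higher together in the CD45- populations. The sequences run 5′ to 3′, and capitals mark matches on either strand to the motifs searched.
Grem1, chr2:113758649-113758898, minus strand: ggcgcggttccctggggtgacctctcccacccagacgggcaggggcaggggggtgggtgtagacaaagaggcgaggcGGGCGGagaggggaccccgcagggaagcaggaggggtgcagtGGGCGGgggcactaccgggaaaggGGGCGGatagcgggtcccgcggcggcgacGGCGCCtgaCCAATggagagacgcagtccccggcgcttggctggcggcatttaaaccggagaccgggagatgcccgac
Bmper, chr9:23222826-23223075, plus strand: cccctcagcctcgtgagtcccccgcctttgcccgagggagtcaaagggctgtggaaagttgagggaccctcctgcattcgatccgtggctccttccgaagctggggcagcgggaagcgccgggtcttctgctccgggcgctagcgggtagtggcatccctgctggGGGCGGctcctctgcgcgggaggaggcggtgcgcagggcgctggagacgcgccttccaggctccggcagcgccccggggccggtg
Gdf10, chr14:33923337-33923586, plus strand: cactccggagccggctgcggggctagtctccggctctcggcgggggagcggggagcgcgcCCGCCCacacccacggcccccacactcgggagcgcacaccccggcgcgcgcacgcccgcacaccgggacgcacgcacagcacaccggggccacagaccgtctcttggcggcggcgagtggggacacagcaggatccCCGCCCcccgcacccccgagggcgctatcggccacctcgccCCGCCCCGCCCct
Bmp4, chr14:46390670-46390919, minus strand: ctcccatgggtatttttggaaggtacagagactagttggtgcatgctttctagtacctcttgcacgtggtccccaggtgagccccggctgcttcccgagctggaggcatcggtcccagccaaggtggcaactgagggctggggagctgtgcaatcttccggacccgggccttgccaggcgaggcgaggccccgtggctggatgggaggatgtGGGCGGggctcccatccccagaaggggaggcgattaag
The motifs were the TATA box, TATAAA, found in 12.4% of 32851 RefSeq promoter windows of this length, the GC box, GGGCGG, found in 32.7%, and the CCAAT box, CCAAT, found in 33.8%. Further ones were the AP-1 element, TGANTCA, in 6.75%, a GC-rich SMAD element, GGCGCC, in 9.59%, and the TEAD element, CATTCC, in 12.6%. The GC box GGGCGG occurred 3 times before Grem1, 4 times before Gdf10 (where the last 2 matches overlap by 1 base), and 1 time each before Bmper and Bmp4. Grem1 also held 1 CCAAT box and 1 GC-rich SMAD element. The TATA box, the AP-1 element and the TEAD element matched none of the 4. All 4 windows were rich in G and C, at 72.0% for Grem1, 71.6% for Bmper, 78.8% for Gdf10 and 63.2% for Bmp4, against a median of 52.4% and a 95th percentile of 73.6% over all windows. Of the promoters not printed, that of Bmp6 had 68.8% and 1 GC box. That of Bmp5 had 42.8%, below the median, and none of the motifs.

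Levels of different genes were compared per length, as normalized RPKM (CPM per kilobase of exon). Over the 10 CD45- libraries the mean level was 79.8 ± 37.6 (SD) for Bmp1, 13.7 ± 8.93 for Grem1 and 3.62 ± 2.53 for Bmper. The growth factors followed, with 1.86 ± 2.32 RPKM for Gdf10, 1.54 ± 0.761 for Bmp4, 0.901 ± 0.525 for Bmp2, 0.289 ± 0.191 for Bmp6 and 0.0827 ± 0.115 for Bmp5, and Nog came last with 0.0107 ± 0.0192. Within single CD45- libraries Bmp1 was above Grem1 in 10 of 10 and Bmp2 above Bmp6 in 10 of 10, whereas Gdf10 was above Bmp4 in 3 of 10, so that this pair has no settled order. Grem1 was above Bmper in 9 of 10, Bmper above Gdf10 in 9 of 10, Bmp4 above Bmp2 in 7 of 10, Bmp6 above Bmp5 in 9 of 10 and Bmp5 above Nog in 8 of 10. The ranges of every pair of neighbours overlapped across the 10 libraries. In the 12 CD45+ libraries Bmp1 again came first, at 1.58 ± 1.10 RPKM, above Grem1 (0.171 ± 0.138) in 12 of 12 libraries and without overlap. Next were Bmp2 (0.119 ± 0.0522), Bmper (0.0624 ± 0.0627), Bmp4 (0.0602 ± 0.0937) and Bmp6 (0.0125 ± 0.0262), neighbours whose ranges overlapped.

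The ligands were read at low levels. Bmp2, a bone-inducing ligand, lay at 1.55 to 7.51 with a median of 2.67 normalized CPM in CD45- libraries and at 0 to 0.654 with a median of 0.423 in CD45+ libraries. The double negative library labelled wild type replicate 1 held the highest value, and the sides did not overlap. Bmp4, the close relative of Bmp2, lay at 0.717 to 6.81 with a median of 2.94 normalized CPM in CD45- and 0 to 0.736 with a median of 0.0576 in CD45+ libraries. These ranges overlapped at 1 point, since the CD45 single positive library labelled Cdh2-cKO replicate 2 (0.736, 11 counts) exceeded the double negative library labelled wild type replicate 3 (0.717). Bmp6, a ligand that also controls hepcidin in the liver, had 152 counts spread over 9 of 10 CD45- libraries and 6 counts in 3 of 12 CD45+ libraries. Its highest level was 1.44 normalized CPM, in double negative cells labelled Cdh2-cKO. Bmp5, a ligand of skeletal patterning, had 76 counts in CD45- libraries, of which 34 came from the TdTOSX single positive library labelled wild type replicate 2, 20 from double negative replicate 2 and 13 from double negative replicate 1 of that genotype. A single count fell on the CD45+ side.

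Gdf10, also called BMP3B, is a TGF-beta superfamily ligand close to BMP3, and its libraries differed widely. It had normalized CPM of 12.4 and 12.2 in the TdTOSX single positive libraries labelled wild type, 0.0334 and 2.88 in those labelled Cdh2-cKO, 14.4, 1.59 and 0.441 in the double negative libraries labelled wild type and 0.388, 1.26 and 1.03 in those labelled Cdh2-cKO. The CD45+ libraries held 1 count in all. Within the CD45- side, 3 libraries labelled wild type stood well above the rest, and 1 TdTOSX single positive library labelled Cdh2-cKO held a single count.

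Bmp1 carries the family name but encodes a metalloproteinase, the procollagen C-proteinase, which also cleaves the BMP antagonist chordin. It had normalized CPM of 609 and 319.6 in the TdTOSX single positive libraries labelled wild type, 189.5 and 373 in those labelled Cdh2-cKO, 396, 255 and 83.4 in the double negative libraries labelled wild type and 249, 232 and 291 in those labelled Cdh2-cKO. The CD45+ libraries ranged from 3.03 to 18.1 with a median of 4.48, and no library of one side reached the other. Replicate 3 of the double negative cells labelled wild type, the library with the most Ptprc of the CD45- side, was the lowest CD45- library. Of the CD45+ libraries, CD45 single positive labelled Cdh2-cKO replicate 2 was highest. Its epithelial marker sum, 470.4 normalized CPM with 251 from Cdh1, and its Schwann cell marker sum, 26.2, were also the highest on that side. Its fibroblast marker sum was 111, within the CD45+ range of 59.4 to 214. The part of these cells was not tested.

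Of the antagonists, Grem1 encodes gremlin 1, which binds BMP2 and BMP4. It had normalized CPM of 85.9 and 27.7 in the TdTOSX single positive libraries labelled wild type, 84.0 and 32.8 in those labelled Cdh2-cKO, 72.8, 21.6 and 18.4 in the double negative libraries labelled wild type and 90.6, 18.0 and 118 in those labelled Cdh2-cKO. The CD45+ libraries ranged from 0.0580 to 2.24 with a median of 0.609, below every CD45- library. Replicates differed widely, and within each of the 4 CD45- groups at least 1 library was more than 1.5 times another.

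Bmper had normalized CPM of 26.4 and 32.4 in the TdTOSX single positive libraries labelled wild type, 7.35 and 12.3 in those labelled Cdh2-cKO, 20.1, 11.7 and 2.37 in the double negative libraries labelled wild type and 10.2, 8.16 and 6.22 in those labelled Cdh2-cKO. The CD45+ libraries ranged from 0 to 0.646 with a median of 0.202, again below every CD45- library. The values of the 2 TdTOSX single positive libraries labelled wild type were the highest of the 22. Nog, the gene of noggin, had 7 counts in 22 libraries, 3 of them in the double positive library labelled wild type replicate 3 and the rest in the CD45- libraries labelled wild type, so any difference in it was not detectable at this depth.

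**Figure D1:**
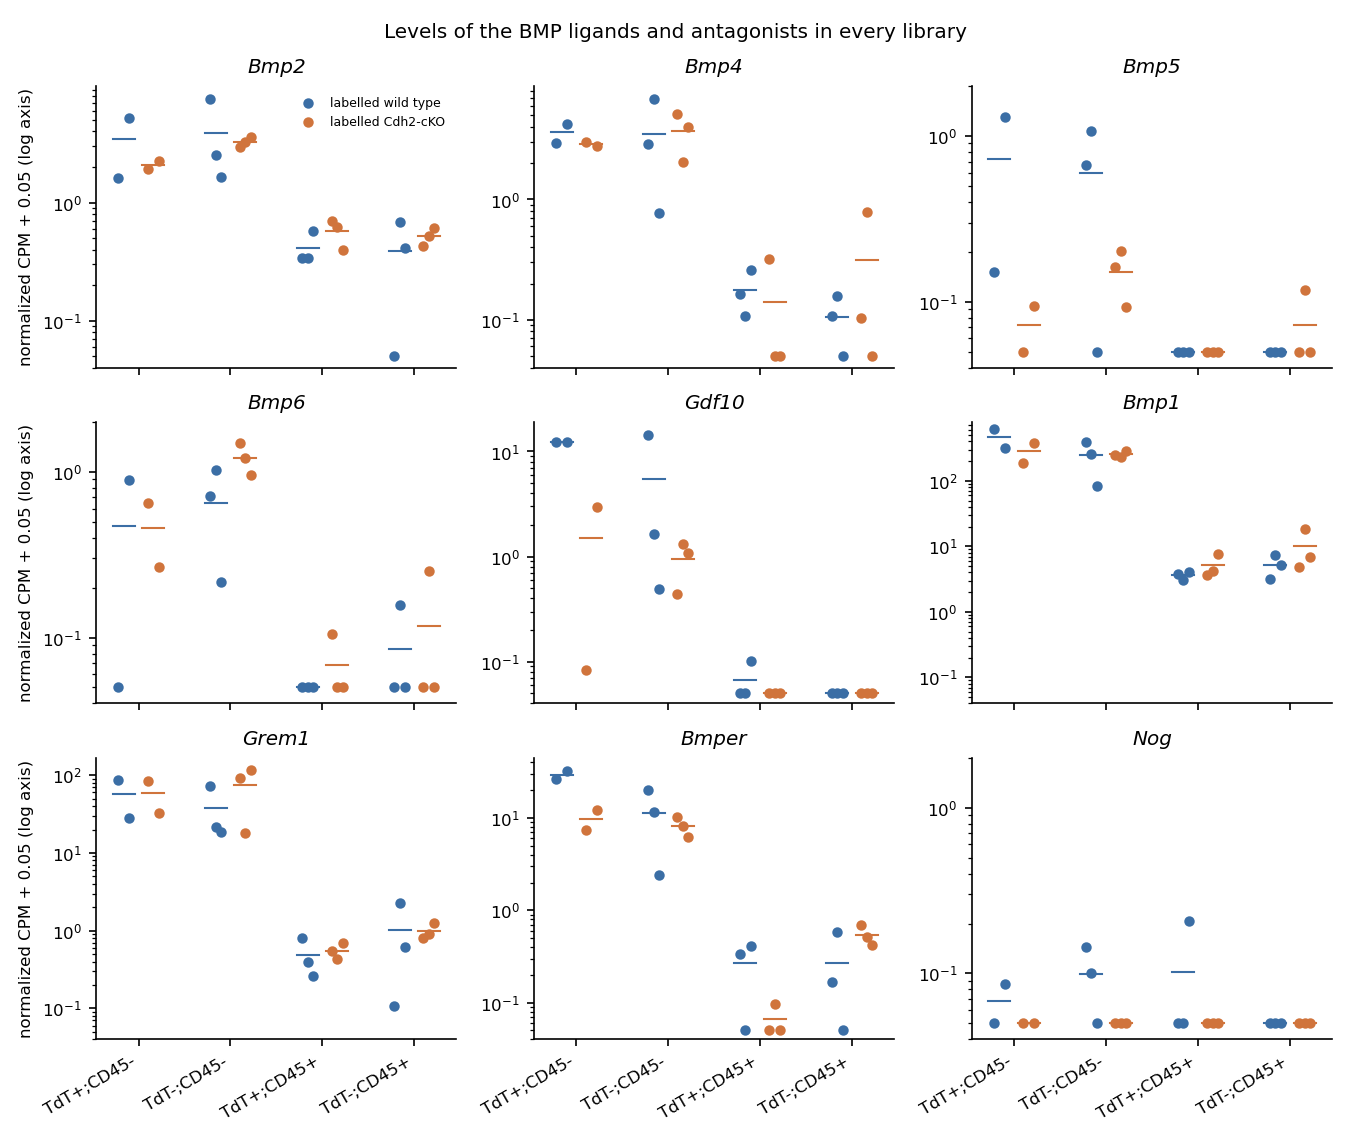
Normalized CPM plus 0.05 of the 9 genes on a log axis in each of the 22 libraries, with 1 panel per gene and the 4 populations along the horizontal axis. Blue points are libraries labelled wild type, orange points libraries labelled Cdh2-cKO, and bars are group means. Bmp1, Bmp2, Grem1 and Bmper separate the CD45- from the CD45+ libraries, and the share of all genes that do so is not given.

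The comparison of the CD45- with the CD45+ populations asks which genes the non-hematopoietic cells of the tumor stroma express above the leukocytes. Bmp1, Grem1 and Bmper were higher in CD45- cells by large factors. Mean Bmp1 was 299.8 ± 141 (SD, n = 10) against 5.95 ± 4.14 (SD, n = 12) normalized CPM, a log2 fold change of 5.77 (SE 0.32, adjusted p = 1.72e-10). For Grem1 the means were 57.0 ± 37.1 (SD, n = 10) and 0.708 ± 0.571 (SD, n = 12), and the log2 fold change was 6.37 (SE 0.50, adjusted p = 9.26e-09). Bmper, at 13.7 ± 9.58 (SD, n = 10) and 0.237 ± 0.238 (SD, n = 12), had a log2 fold change of 6.35 (SE 0.51, adjusted p = 1.15e-08). Each of these was higher in 10 of 10 CD45- libraries than in any CD45+ library. The share of all genes tested that separate in this way is not given, so the separation alone does not set these genes apart. The ligands were higher too. Bmp2 differed by 2.84 (SE 0.40, adjusted p = 8.83e-06) on the log2 scale, and Bmp4 by 4.82 (SE 0.62, adjusted p = 3.72e-06). Where the CD45+ side held 10 counts or fewer, the ratio of counts is given with its interval. For Gdf10, 1047 counts against 1 gave a ratio of 1024 (95% exact counting interval 183 to 40482) and adjusted p = 4.48e-05. Bmp6, with 152 counts against 6, had a ratio of 24.8 (95% exact counting interval 11.1 to 68.6) and adjusted p = 0.000184. Bmp5, with 76 counts against 1, had 74.3 (95% exact counting interval 12.9 to 2974) and adjusted p = 0.0132. All 8 genes tested were called at an adjusted p of at most 0.05, and so were 63.3% of the 15020 genes tested (4819 higher and 4686 lower in CD45- cells), so a call alone sets them apart little. The filter also bears on this tally, since Bmp2, Bmp4, Bmp5, Bmp6, Bmper and Gdf10 exceeded 1 CPM in 10, 9, 2, 4, 10 and 7 libraries, all of them CD45-, and so were tested through the side on which they are high. Grem1 exceeded 1 CPM in 11 libraries, of which CD45 single positive wild type replicate 2 was the only CD45+ library. It too passed the filter only through the CD45- side, unlike Bmp1, which exceeded 1 CPM in all 22. By size, the share of genes tested with a larger log2 fold change was 0.0599% for Gdf10, 2.49% for Grem1, 2.54% for Bmper, 3.62% for Bmp1, 6.07% for Bmp4, 6.97% for Bmp6, 7.70% for Bmp5 and 13.3% for Bmp2. For Gdf10 and Bmp5, with 1 count on the CD45+ side, this share rests on fitted values that depend on the method. Under the alternatives they lay at 5.65 to 9.33 and 2.63 to 6.59, lowest with voom and highest with wild type libraries alone, and Bmp6 lay at 3.84 to 5.35, lowest with voom and highest without both libraries that stand apart. In bulk populations fewer cells of a type and less RNA per cell cannot be told apart.

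Some of these values rest on single libraries. Without TdTOSX single positive Cdh2-cKO replicate 2, Bmp5 had a log2 fold change of 3.80 and was not called (adjusted p = 0.9999), and without TdTOSX single positive wild type replicate 2 or double negative wild type replicate 2 it did not pass the filter. Bmp6 lost its call without TdTOSX single positive wild type replicate 2, with 2.98 (adjusted p = 0.9999) in place of 4.54. In both cases a CD45- group is then left without counts, where the fitted value has little meaning. The fit to all 22 libraries also holds groups without counts, on the CD45+ side. Bmp5 had counts there only in Cdh2-cKO CD45 single positive cells and Gdf10 only in wild type double positive cells. Bmp6 had none in wild type double positive cells. The calls and fitted values of these genes with all libraries share this limit. Bmp6 had 5.23 without CD45 single positive wild type replicate 2 and 5.41 without CD45 single positive Cdh2-cKO replicate 2. Bmp4 moved from 4.82 to 5.55 without that same library and to 5.80 without double positive Cdh2-cKO replicate 1, the CD45+ libraries that held 11 and 5 of its 27 counts. Gdf10 moved from 8.43 to 7.81 without double negative wild type replicate 1 and to 7.13 without TdTOSX single positive Cdh2-cKO replicate 2. Bmp1, Bmp2, Grem1 and Bmper kept their calls without each of the 22 libraries in turn and moved by less than 1.5 times.

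The comparison of TdT+ with TdT- cells within the CD45- cells asks whether cells with a history of Osx-cre differ from the other non-hematopoietic stroma. For the BMP genes no difference passed the test. Bmper had 19.6 ± 11.8 (SD, n = 4) normalized CPM in TdTOSX single positive and 9.78 ± 6.00 (SD, n = 6) in double negative libraries, a log2 fold change of 0.81 (SE 0.55, adjusted p = 0.442). Gdf10 had 6.87 ± 6.36 (SD, n = 4) and 3.18 ± 5.49 (SD, n = 6), or 0.93 (SE 0.96, adjusted p = 0.635). Bmp1 had 373 ± 176 (SD, n = 4) and 251 ± 101 (SD, n = 6), or 0.53 (SE 0.40, adjusted p = 0.5003), and Grem1 was nearly level at 57.6 ± 31.7 (SD, n = 4) and 56.5 ± 43.2 (SD, n = 6), or 0.11 (SE 0.59, adjusted p = 0.944). Bmp2, Bmp4 and Bmp6 leaned the other way, with -0.43 (SE 0.55, adjusted p = 0.704) for Bmp2, -0.16 (SE 0.75, adjusted p = 0.935) for Bmp4 and -0.98 (SE 0.91, adjusted p = 0.588) for Bmp6. For Bmp5 37 counts stood against 39 (adjusted p = 0.713). Without TdTOSX single positive Cdh2-cKO replicate 2 the log2 fold change of Gdf10 turned to -1.67, and those of Bmp2, Bmp4 and Grem1 also took either sign as single libraries were left out. The ranges of each of these genes overlapped between the populations. The fibroblast sum, at 58296 and 30194 (wild type) and 13313 and 27163 (Cdh2-cKO) in TdTOSX single positive and 33049, 9609 and 4260.3 and 9757, 9241 and 14825 in double negative libraries, overlapped too. Between libraries of the same genotype and number, this sum was higher in the TdT+ library in 4 of 4 pairs, and so were the pericyte, pan-leukocyte, T cell and osteoblast sums, while the endothelial and epithelial sums were lower in 4 of 4. The osteoblast sum is nearly all Spp1, and its list had a median log2 fold change of -0.32 (2 of 5 above 0). The macrophage sum was higher in 3 of 4, and the adipocyte, skeletal muscle and Schwann cell sums were lower in 3 of 4. The part of these cells was not tested. In the same pairs Bmp6 was lower in the TdT+ library in 4 of 4, Bmp2 and Bmp5 in 3 of 4 each, and Bmp1, Grem1 and Bmper were higher in 3 of 4 each, while Bmp4 and Gdf10 were higher in 2 of 4. Of the 8 tested, 0 were called by edgeR, by voom or by DESeq2, and 0 had an unadjusted p under 0.05, against 2.1% of all genes called (122 higher and 193 lower, which turned to 174 and 120 with RLE factors, 363 and 263 with voom and 516 and 468 with DESeq2, and with 2914 at an unadjusted p under 0.05). The count over all genes moved by over 1.5 times without each library except TdTOSX single positive wild type replicate 2, CD45 single positive wild type replicates 1 and 3 and double negative Cdh2-cKO replicate 3, and lay between 20 (without TdTOSX single positive Cdh2-cKO replicate 1) and 812 (without double negative wild type replicate 3). It was 1312 with the replicate number as a block in the CD45- cells, a fit chosen after seeing the data in which double negative replicate 3 has no partner. No BMP gene was called with that block or without any 1 library.

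Within the CD45+ cells, TdT+ against TdT- compares leukocytes with and without the reporter. Bmp1 stood at 4.33 ± 1.62 (SD, n = 6) normalized CPM in double positive and 7.57 ± 5.36 (SD, n = 6) in CD45 single positive libraries, a log2 fold change of -0.75 (SE 0.38, adjusted p = 0.9999). Bmper, with 13 counts against 37, had -2.20 (SE 0.89, adjusted p = 0.9999), and Grem1, with 51 against 100, had -1.03 (SE 0.68, adjusted p = 0.9999). CD45 single positive wild type replicate 2, which stands apart, held 42 of those 100 Grem1 counts, and without it the values were -0.25 for Grem1 and -1.27 for Bmper. With wild type libraries alone Bmper was level, at -0.034, and with Cdh2-cKO libraries alone it had -4.39. Fibroblast and T cell markers had medians of -0.86 and -0.80 (0 of 7 above 0 in each), Schwann cell markers -0.90 (1 of 4) and skeletal muscle markers 1.47 (4 of 5), none called, and their part was not tested. That wild type replicate 2 had a T cell sum of 2605, while the sums of the other CD45 single positive libraries were 30.6 to 109 and those of double positive libraries 38.1 to 638. Bmp2 had 0.14 (SE 0.56, adjusted p = 0.9999). Bmp4 had 12 counts against 15 (adjusted p = 0.9999), with 11 of the 15 in CD45 single positive Cdh2-cKO replicate 2. With 1 library left out, Bmp2 lay between -0.14 and 0.56 and Bmp4 between -2.11 and 1.30, so neither has a settled direction. Bmp6 had 1 count against 5, in a ratio of 5.29 (95% exact counting interval 0.592 to 250.2) lower in double positive cells. Gdf10 and Bmp5 had at most 1 count on each side. Of the 8 genes tested 0 were called by edgeR, voom or DESeq2, and 1, Bmper, had an unadjusted p under 0.05. Over all genes 0.00666% were called, which is 1 gene, Duoxa2, named after its value was seen, with 575 at an unadjusted p under 0.05.

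**Figure D2:**
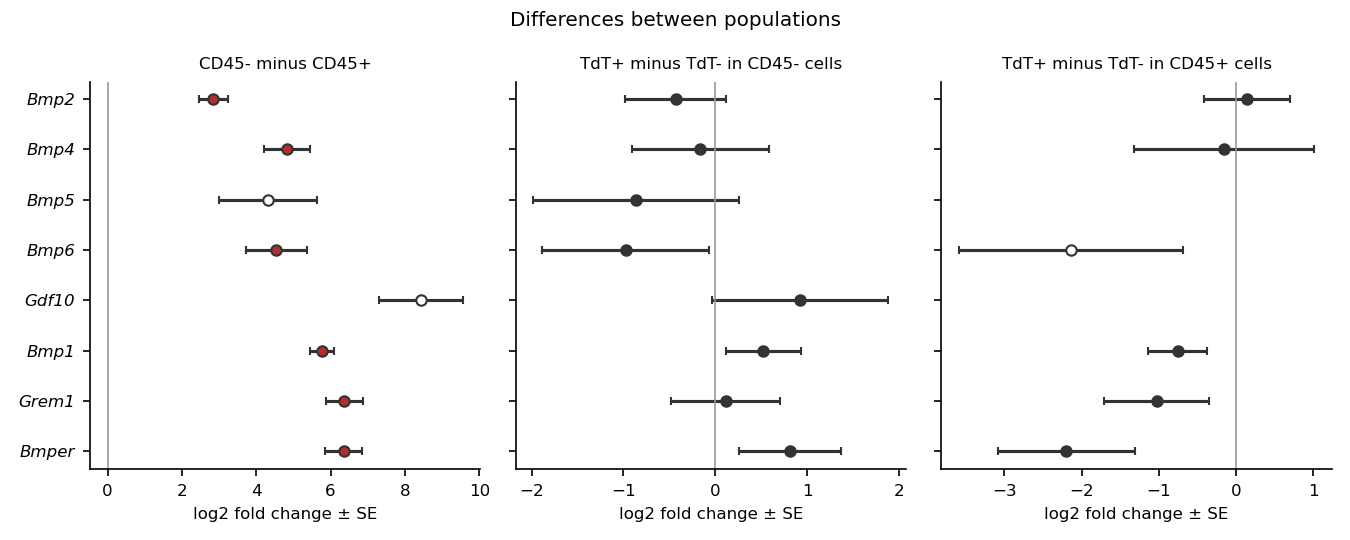
Log2 fold changes (points) with standard errors (bars) of the BMP genes tested, in 3 comparisons of populations. Red points passed an adjusted p of 0.05, white points have 3 counts or fewer on a side, and genes with both sides at or under that floor are not drawn. Red points appear in the comparison of CD45- with CD45+ cells, and not in those of TdT+ with TdT- cells.

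Between the genotypes as labelled, the largest differences among the TdTOSX single positive cells were those of Bmp5, Gdf10 and Bmper, and none passed the test. Gdf10 had 1.46 ± 2.01 (SD, n = 2) normalized CPM in libraries labelled Cdh2-cKO and 12.3 ± 0.114 (SD, n = 2) in those labelled wild type, a log2 fold change of -3.09 (SE 1.61, adjusted p = 0.527). Bmper had 9.81 ± 3.47 (SD, n = 2) and 29.4 ± 4.20 (SD, n = 2), a log2 fold change of -1.59 (SE 0.89, adjusted p = 0.541). Without Cdh2-cKO replicate 1 the value of Gdf10 was -2.09, without Cdh2-cKO replicate 2, which leaves 1 count in that group, it was -8.27, and with voom -5.34. Bmp5 had 1 count against 36, a ratio of 40.2 (95% exact counting interval 6.77 to 1631) lower in Cdh2-cKO cells, with adjusted p = 0.433. These 3 genes did not overlap between the 2 libraries of each genotype, and 34 of the 36 Bmp5 counts lay in 1 library. With 2 libraries on each side ranges separate easily, and the share of all genes that do so is not given. The separation is therefore not read as a result about these genes. The fibroblast sum did not overlap either (13313 and 27163 in Cdh2-cKO, 58296 and 30194 in wild type libraries), nor did the pan-leukocyte sum (4995 and 2273 against 226 and 2114). The same held for the pericyte (1111 and 2287 against 4008 and 2699.5), endothelial (84.3 and 59.1 against 105 and 187), adipocyte (10.4 and 10.7 against 74.9 and 38.4) and epithelial sums (914 and 895 against 40.8 and 542). Schwann cell markers had a median log2 fold change of -2.58 and endothelial ones -1.25 (0 of 4 and 0 of 7 above 0), none called. Other lists went up, also without a call. Macrophage and pan-leukocyte markers had medians of 1.84 and 1.70 (7 of 7 above 0 in each). Skeletal muscle markers had 1.95 (4 of 5) and epithelial markers 1.70 (5 of 7). The part of these cells in the differences was not tested. The other genes overlapped, with -0.72 (SE 0.64, adjusted p = 0.702) for Bmp1, -0.74 (SE 0.85, adjusted p = 0.776) for Bmp2, -0.31 (SE 1.16, adjusted p = 0.946) for Bmp4 and 0.04 (SE 0.92, adjusted p = 0.993) for Grem1, and with 23 counts of Bmp6 on each side. The value of Bmp1 lay between -1.29 (without Cdh2-cKO replicate 2) and -0.18 (without wild type replicate 1). Of the 8 genes tested 0 were called by edgeR, voom or DESeq2, and 1, Bmp5, had an unadjusted p under 0.05. Over all genes 0.00666% were called, which is Nipal3 alone, named after its value was seen, with 1595 at an unadjusted p under 0.05. The number called was 0 with voom and 134 with DESeq2, 0 without wild type replicate 1 or Cdh2-cKO replicate 1 of these cells, 89 without their wild type replicate 2, 4 without their Cdh2-cKO replicate 2 and 14 without double negative wild type replicate 3.

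In double negative cells Gdf10 was again lower in the libraries labelled Cdh2-cKO in the fit, at 0.892 ± 0.452 (SD, n = 3) against 5.46 ± 7.72 (SD, n = 3) normalized CPM, a log2 fold change of -2.60 (SE 1.31, adjusted p = 0.623) with overlapping ranges. Its wild type mean rests on replicate 1, which also had the highest fibroblast sum of these cells, 33049, and without that library the log2 fold change was -0.23. Grem1 leaned the other way, at 75.5 ± 51.6 (SD, n = 3) against 37.6 ± 30.5 (SD, n = 3), or 1.01 (SE 0.76, adjusted p = 0.881). Bmp5 had 6 counts against 33, a ratio of 5.72 (95% exact counting interval 2.37 to 16.7) lower in Cdh2-cKO cells (adjusted p = 0.737). Bmper had -0.47 (SE 0.71, adjusted p = 0.980) and Bmp6 0.95 (SE 1.12, adjusted p = 0.971). Bmp1 (0.07, SE 0.52, adjusted p = 0.997), Bmp2 (-0.26, SE 0.69, adjusted p = 0.993) and Bmp4 (0.09, SE 0.94, adjusted p = 0.997) lay near 0 and took either sign as single libraries were left out, as did Bmper. Leukocyte markers also differed here without passing the test. The pan-leukocyte sum was 412, 409 and 465 in libraries labelled Cdh2-cKO against 217, 1322 and 8076 in wild type, the median log2 fold changes were -3.45 for the pan-leukocyte and -3.81 for the macrophage list (0 of 7 above 0 in each), with -1.78 for T cell (0 of 7) and 2.09 for skeletal muscle markers (4 of 5), and Ptprc had -3.36 (SE 1.11, adjusted p = 0.219). The part of these cells was not tested. By edgeR 0 of the 8 were called and 0 had an unadjusted p under 0.05, and voom and DESeq2 called 0 of them. Over all genes edgeR called 0%, with 1397 genes at an unadjusted p under 0.05, voom called 0 genes and DESeq2 522, and edgeR called 603 without wild type replicate 1 and 31 without wild type replicate 2 of these cells.

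The same comparison in the leukocyte populations rests on few counts. In double positive cells Bmper had 1 count in the libraries labelled Cdh2-cKO and 12 in those labelled wild type, a ratio of 12.6 (95% exact counting interval 1.86 to 538) lower in Cdh2-cKO cells (adjusted p = 1), while in CD45 single positive cells it had 25 against 12, or 1.18 (SE 0.95, adjusted p = 0.716), the other way. In CD45 single positive cells Bmp4 had 12 counts against 3, a ratio of 4.45 (95% exact counting interval 1.202 to 24.6) higher in Cdh2-cKO cells (adjusted p = 0.647), with 11 of the 12 in replicate 2, and in double positive cells 5 against 7, a ratio of 1.47 (95% exact counting interval 0.401 to 5.87) lower. Bmp1 had 0.50 (SE 0.54, adjusted p = 1) in double positive and 0.93 (SE 0.54, adjusted p = 0.604) in CD45 single positive cells. T cell markers had medians of -2.96 in double positive and -4.36 in CD45 single positive cells (0 of 7 above 0 in each), with sums of 77.0, 64.2 and 38.1 against 81.1, 284 and 638 and of 30.6 to 109 against 38.2 to 2605, where wild type replicate 2, the library that stands apart, is the highest. Skeletal muscle markers had -1.73 in double positive cells (0 of 5), and fibroblast markers 0.40 and 0.49 (6 of 7 in each), none called, and their part was not tested. By edgeR, voom and DESeq2 0 of the 8 genes were called in either population, and at an unadjusted p under 0.05 there was 1, Bmper, in double positive cells. Over all genes edgeR called 0% in double positive cells (519 genes at an unadjusted p under 0.05, 0 by voom and 1 by DESeq2) and 0% in CD45 single positive cells (1342, 0 and 26). The difference between genotypes of the TdT effect in CD45- cells was tested as an interaction. Bmper had -1.11 (SE 1.13, adjusted p = 0.857), Grem1 -0.96 (SE 1.19, adjusted p = 0.885) and Bmp1 -0.79 (SE 0.82, adjusted p = 0.857), and adjusted p over the 8 genes lay between 0.853 and 0.968. Pan-leukocyte and macrophage markers had median interactions of 5.23 and 5.60 (7 of 7 above 0 in each), T cell markers 2.23 (7 of 7), endothelial markers -1.39 (0 of 7) and Schwann cell markers -1.91 (0 of 4), and Ptprc had 4.99 (SE 1.71, adjusted p = 0.215), none called, and their part was not tested. By edgeR, voom and DESeq2 0 of the 8 were called, and 0 had an unadjusted p under 0.05, while over all genes 0.00666% were called, again Nipal3, with 1483 at an unadjusted p under 0.05. That number was 0 with voom and 558 with DESeq2, and it lay between 0 and 637 (without double negative wild type replicate 1) with 1 library left out, and it was 130 with the replicate number as a block in the CD45- cells. An effect in one genotype and not the other is thus not shown for these genes.

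**Figure D3:**
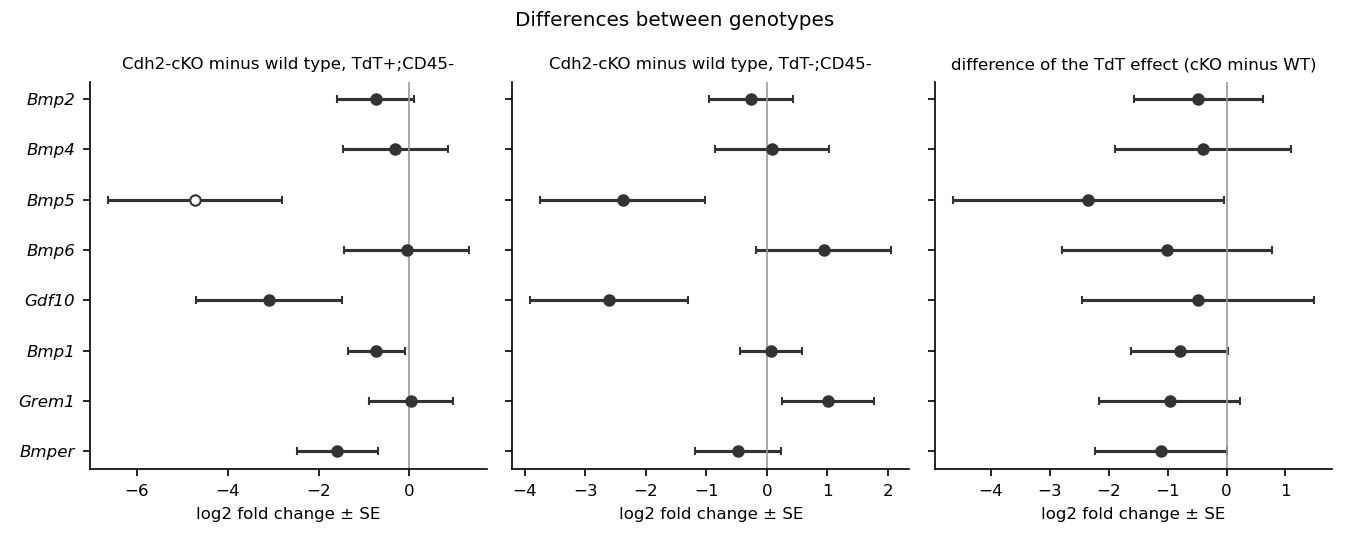
Log2 fold changes (points) with standard errors (bars) of the BMP genes between libraries labelled Cdh2-cKO and wild type, in TdTOSX single positive and double negative cells, and the interaction with TdT. White points have 3 counts or fewer on a side, and red, the color of an adjusted p of at most 0.05, does not occur.

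The rest of the pathway was counted from 5 lists, beside a median log2 fold change of -0.03 over all genes in the comparison of CD45- with CD45+ cells, in which 32.1% of all genes tested were higher and 31.2% lower. Of 15 other BMP, GDF and activin genes, 8 were tested, 6 were higher and 1 lower in CD45- cells, with a median of 3.75. Bmp3 and Inhbb reached at most 0.0584 and 0.875 normalized CPM in CD45+ libraries, and Gdf6 had a CD45+ mean of 0.0240. These were tested through the side on which they are high, which bears on the tally. Bmp8b did not pass the filter, so at most 1 library exceeded 1 CPM. Its CD45+ mean of 3.12, against 0.00429 in CD45- libraries, thus rests mostly on 1 library. Inhbb, an activin subunit, had 33.2 ± 17.3 (SD, n = 10) against 0.412 ± 0.282 (SD, n = 12) normalized CPM, a log2 fold change of 6.45 (SE 0.37, adjusted p = 2.23e-10). Inhba, another activin subunit, had 455 ± 152 (SD, n = 10) against 33.8 ± 23.4 (SD, n = 12) normalized CPM, or 3.80 (SE 0.40, adjusted p = 3.71e-07). Bmp3, the nearest relative of Gdf10, had 7.09 (SE 0.79, adjusted p = 3.80e-06). The gene that was lower, Gdf15, a stress-induced ligand named after its value was seen, had -2.90 (adjusted p = 7.87e-05). Of 24 other extracellular antagonists and modulators 18 were tested, 17 were higher and 0 lower, with a median of 5.02. Among them, Fstl1, a follistatin-like protein, had 2543 ± 1443 (SD, n = 10) against 16.8 ± 7.69 (SD, n = 12) normalized CPM, or 7.27 (SE 0.33, adjusted p = 3.88e-11). Chrdl1, a chordin-like antagonist, had 6.83 (SE 0.32, adjusted p = 5.11e-11), and Smoc2 7.83 (SE 0.46, adjusted p = 2.75e-10). In CD45+ libraries Chrdl1 and Smoc2 did not exceed 0.539 normalized CPM. Tll1, Sostdc1 and Chrd had CD45+ means of 0.0182, 0.0269 and 0.0668. Such antagonists were tested through the side on which they are high, which bears on the tally and the median of this list too.

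The lists of receptors and intracellular genes had smaller medians, a difference between lists that was not tested. Their counts stand beside the same 32.1% higher and 31.2% lower over all genes. Of 15 receptors and co-receptors measured 14 were tested, 10 were higher in CD45- cells and 1 lower, with a median log2 fold change of 1.57. The co-receptor genes Rgma and Neo1 had 5.28 (SE 0.31, adjusted p = 3.24e-10) and 3.90 (SE 0.29, adjusted p = 4.92e-09). Rgma reached at most 0.201 normalized CPM in CD45+ libraries, and Bmpr1b, another receptor gene of the list, had a CD45+ mean of 0.129. Both were thus tested through the side on which they are high, which bears on the tally and the median of this list. Bmpr1a, a type I receptor, had 34.7 ± 13.3 (SD, n = 10) against 1.83 ± 1.17 (SD, n = 12) normalized CPM, or 4.27 (SE 0.33, adjusted p = 7.11e-09). Acvrl1, a type I receptor best known from endothelium and named here after its value was seen, was lower (-1.11, adjusted p = 9.71e-05). Of 11 SMAD genes and regulators tested 8 were higher and 3 lower, with a median of 0.87. Smad5, Ppm1a, a SMAD phosphatase, and Smurf1, a ubiquitin ligase for SMADs, had 1.59 (SE 0.11, adjusted p = 2.34e-09), 0.87 (SE 0.12, adjusted p = 6.29e-06) and 1.37 (SE 0.19, adjusted p = 6.74e-06). Those that were lower, named after their values were seen, were the inhibitory Smad6 (-1.24, adjusted p = 0.00488) and the co-repressors Skil (-0.89, adjusted p = 2.60e-05) and Ski (-0.26, adjusted p = 0.0374). Of 11 BMP target genes tested 7 were higher and 2 lower, with a median of 0.99. Id3 had 367 ± 130.1 (SD, n = 10) against 40.2 ± 23.9 (SD, n = 12) normalized CPM, or 3.20 (SE 0.30, adjusted p = 7.67e-08), Msx1 6.56 (SE 0.54, adjusted p = 1.63e-08) and Hey1 3.91 (SE 0.46, adjusted p = 1.49e-06). In CD45+ libraries Msx1 and Hey1 did not exceed 0.627 normalized CPM, and Id4 and Atoh8 had CD45+ means of 0.049 and 0.0148. Msx1, Hey1, Id4 and Atoh8 were thus tested through the side on which they are high, which bears on the tally of targets. The targets that were lower, named after their values were seen, were Id2 (-2.02, adjusted p = 1.50e-05) and Smad6, so the target list did not move one way. Smad6, Smad7 and Smad9 stand in both the SMAD and the target list, Bambi in both the receptor and the target list, and Runx2 and Sp7 in both the target list and the osteoblast marker list.

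**Figure D4:**
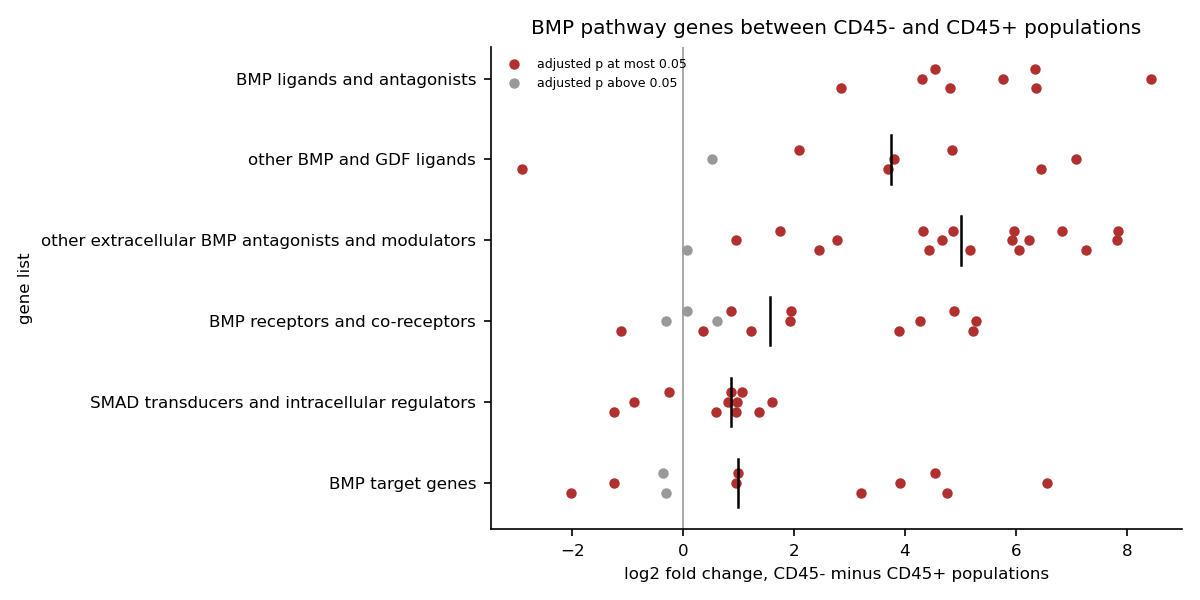
Log2 fold changes between CD45- and CD45+ cells of each gene tested, with 1 line of points per list and 1 for the 8 BMP genes. Red points passed an adjusted p of 0.05, and black bars are list medians, which run from 0.87 for SMAD genes to 5.02 for extracellular antagonists and modulators.

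In the comparisons of TdT+ with TdT- cells and of the genotypes no gene of the 5 lists was called by edgeR. Within CD45- cells the list medians for TdT+ against TdT- were 0.59 for ligands, 0.41 for antagonists, 0.10 for receptors, -0.07 for SMAD genes and 0.12 for targets, beside -0.01 over all genes. By the level rule, the genes named there were Inhba (0.18, SE 0.55, adjusted p = 0.889), Inhbb (0.33, SE 0.42, adjusted p = 0.708), Fstl1 (0.86, SE 0.39, adjusted p = 0.234) and Pcolce (0.42, SE 0.45, adjusted p = 0.644), the enhancer of the Bmp1 proteinase. The receptors Bmpr2 (0.16, SE 0.31, adjusted p = 0.811) and Acvrl1 (0.69, SE 0.28, adjusted p = 0.191) did not pass either, nor did Skil (0.10, SE 0.20, adjusted p = 0.819), Ski (0.09, SE 0.15, adjusted p = 0.790), Id2 (-0.03, SE 0.41, adjusted p = 0.986) and Id3 (0.12, SE 0.42, adjusted p = 0.906). Within CD45+ cells the medians were -0.29, -0.39, -0.20, -0.14 and -0.13 in the same order, beside -0.04 over all genes, and with genes of 3 counts or fewer on a side at their bound the first 2 became -0.15 and -0.43. There Fstl1 had -0.62 (SE 0.35, adjusted p = 0.9999), Pcolce -0.58 (SE 0.41, adjusted p = 0.9999), Id3 -0.58 (SE 0.38, adjusted p = 0.9999) and Inhba -0.36 (SE 0.50, adjusted p = 0.9999), and the other genes named by level, Inhbb, Bmpr2, Acvrl1, Skil, Ski and Id2, had log2 fold changes between -0.15 and 0.14. Between genotypes in TdTOSX single positive cells the medians were -0.96, -0.90, -0.66, -0.26 and -0.45 in that order, beside 0.00 over all genes, and 1 of 18 antagonists lay above 0. In double negative cells they were 0.32, 0.06, 0.08, 0.21 and -0.41, beside -0.02. For the interaction they were -1.43, -1.04, -0.60, -0.39 and -0.55, beside -0.02, with 0 of 18 antagonists above 0. The fibroblast markers had medians of -1.21 in TdTOSX single positive cells and -0.83 for the interaction, with 0 of 7 above 0 in each, and their part was not tested.

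Cell type markers moved with the same comparison, as sums of normalized CPM, and calls are given beside 32.1% of all genes higher and 31.2% lower. The fibroblast list, led by Col1a1, summed to 4260.3 to 58296 in CD45- and 59.4 to 214 in CD45+ libraries, 7 of 7 tested genes were higher, and Pdpn had no count in any library. The sums were 58296 and 30194 in TdTOSX single positive libraries labelled wild type, 13313 and 27163 in those labelled Cdh2-cKO, 33049, 9609 and 4260.3 in double negative libraries labelled wild type and 9757, 9241 and 14825 in those labelled Cdh2-cKO. Pericyte and smooth muscle markers, led by Acta2 in CD45- and Cspg4 in CD45+ cells, summed to 307 to 4008 and 13.8 to 121 (7 of 8 higher), and endothelial markers, led by Pecam1, to 42.2 to 395 and 8.92 to 202 (7 of 7 higher). The leukocyte lists went the other way. Pan-leukocyte markers, led by Laptm5, summed to 217 to 8076 and 11602 to 17172 (7 of 7 lower in CD45- cells). Macrophage markers, led by C1qb, summed to 76.5 to 8744 and 3469.8 to 16618 (7 of 7 lower), and T cell markers to 6.92 to 42.6 and 30.6 to 2605 (7 of 7 lower), led by Trac and Cd2. Epithelial and luminal tumor markers, led by Krt18 in CD45- and Cdh1 in CD45+ cells, summed to 40.8 to 2079 and 129.6 to 470.4 (4 higher and 2 lower of 7). Osteoblast markers summed to 5352 to 11882 and 4634 to 55771, nearly all of it Spp1, which macrophages also express (4 higher and 1 lower of 5). Adipocyte markers summed to 7.61 to 92.1 and 3.24 to 15.6 (1 of 2 higher, Fabp4 leading), skeletal muscle markers to 14.7 to 197 and 5.45 to 35.1 (3 of 5 higher, Acta1 and Mylpf leading) and Schwann cell markers to 58.8 to 209 and 3.97 to 26.2 (2 of 4 higher, Ncam1 leading). No marker was called by edgeR, the fit behind all calls of markers and lists here, between TdT+ and TdT- cells or between genotypes. The part of these cell types in the levels of the BMP genes was not tested.

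Across the 10 CD45- libraries, which come from 4 groups, 8 BMP genes and 11 marker sums were correlated, and the genes followed different markers in log2 CPM. These correlations are a description. Bmp1 followed the pericyte sum (r = 0.947, rho = 0.915, r = 0.787 without the 2 libraries farthest from the median) and the fibroblast sum (r = 0.915, rho = 0.903, r = 0.812 without the 2 libraries farthest from the median). Bmper did likewise, with the fibroblast sum (r = 0.864, rho = 0.758, r = 0.799 without the 2 libraries farthest from the median) and the pericyte sum (r = 0.872, rho = 0.818, r = 0.710 without the 2 libraries farthest from the median), and so did Gdf10 with the fibroblast sum (r = 0.765, rho = 0.709, r = 0.888 without the 2 libraries farthest from the median). Bmp4 went with the endothelial sum (r = 0.778, rho = 0.758, r = 0.679 without the 2 libraries farthest from the median) and Bmp6 with the epithelial sum (r = 0.831, rho = 0.782, r = 0.429 without the 2 libraries farthest from the median), which rests in part on the libraries left out. Grem1 followed no sum as closely, and its highest r was with the osteoblast sum (r = 0.531, rho = 0.442, r = 0.531 without the 2 libraries farthest from the median). Among the BMP genes themselves 28 pairs had r between -0.297 and 0.860, with a median of 0.405.

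**Figure D5:**
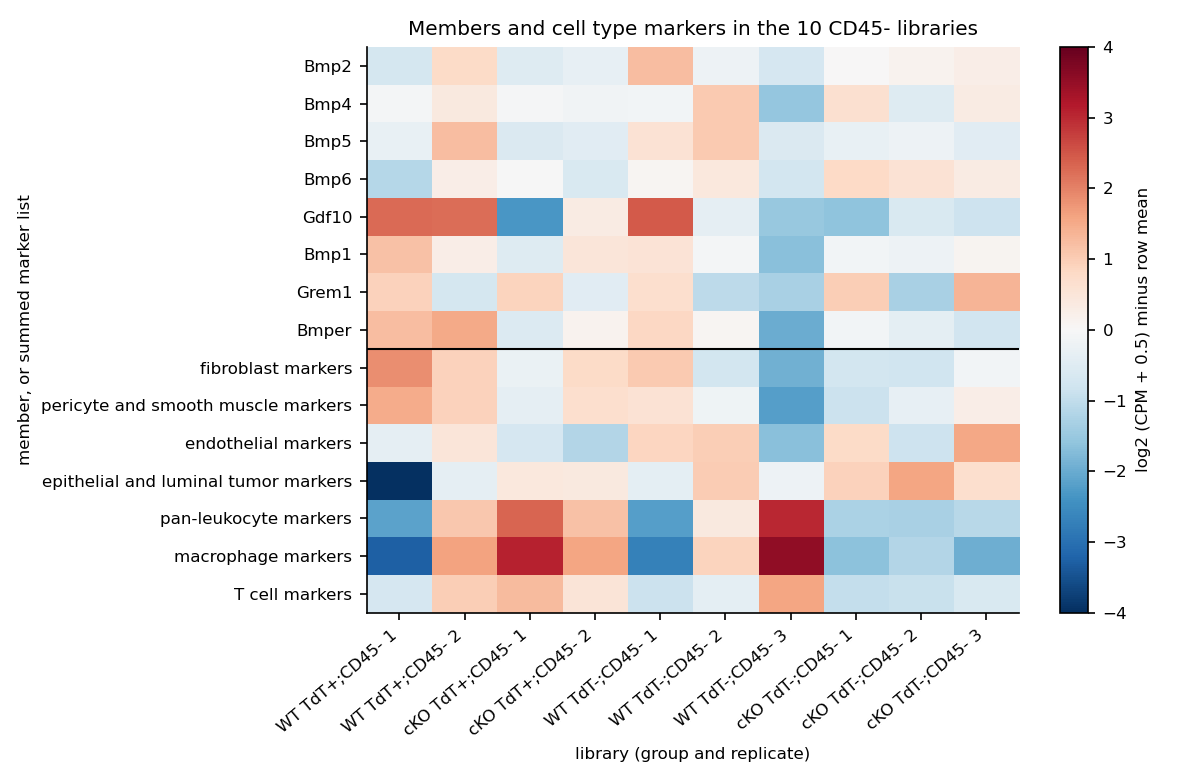
Heat map of log2 normalized CPM (plus 0.5) of the 8 BMP genes tested and of 7 of the marker sums in the 10 CD45- libraries, each line minus its mean, with colors saturating at 4 units. Bmp1 and Bmper run high where the fibroblast and pericyte sums do.

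The genes whose level followed each BMP gene most closely over the same 10 libraries were taken from about 13030 genes with a mean of at least 1 normalized CPM. Bmp1 was nearest to Maged2 (r = 0.988, rho = 0.976, 0.949 without the 2 libraries farthest from its median) and Fkbp9 (r = 0.987, rho = 0.988, 0.937 without them). Bmper was nearest to Itgbl1 (r = 0.983, rho = 0.952, 0.947 without the 2 libraries farthest from its median) and 4921504A21Rik (r = 0.978, rho = 0.976, 0.963 without them). Nearest to Gdf10 were Zfp830 (r = 0.966, rho = 0.939, 0.947 without the 2 libraries farthest from its median) and Rarb (r = 0.959, rho = 0.915, 0.957 without them). Grem1 ran with Kng2 (r = 0.947, rho = 0.903, 0.931 without the 2 libraries farthest from its median) and Fn1 (r = 0.920, rho = 0.903, 0.871 without them), the gene of fibronectin. The ligands came next, each with its closest pair. Bmp2 ran with Pitpnm2 (r = 0.930, rho = 0.855, 0.783 without the 2 libraries farthest from its median) and Rprd2 (r = 0.899, rho = 0.782, 0.749 without them). Bmp4 followed Dvl1 (r = 0.944, rho = 0.842, 0.815 without the 2 libraries farthest from its median) and Fndc10 (r = 0.934, rho = 0.879, 0.823 without them), Dvl1 being a Wnt pathway protein. Closest to Bmp6 were Tfap2a (r = 0.973, rho = 0.903, 0.917 without the 2 libraries farthest from its median) and Nrn1 (r = 0.960, rho = 0.915, 0.856 without them). Closest to Bmp5 were Ly6c1 (r = 0.907, rho = 0.948, 0.842 without the 2 libraries farthest from its median) and Uap1 (r = 0.906, rho = 0.948, 0.813 without them). These are the largest values of r over 10 libraries and that many genes, and nothing was read from them.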

How the data were processed

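RNA of 22 libraries of sorted mouse tumor stroma had been amplified with the SMARTer Ultra Low kit and sequenced as single reads of 50 bases. For each library the authors aligned reads to GRCm38 with STAR 2.0.4b and ran Subread featureCounts (Ensembl release 76), keeping reads that aligned to 1 place and to 1 gene. The deposited counts are not normalized. The deposited CPM are those counts scaled to the library's total, and the deposited RPKM are the CPM per kilobase of gene length, both computed by the authors and used here only to check the counts. Left out were 353 rRNA genes, and a gene had to exceed 1 CPM in 2 or more libraries, which left 15020. The quasi-likelihood fit of edgeR 4.0.16 (R 4.3.3) had 8 group means and TMM factors, from 0.820 to 1.18. P-values were adjusted over all genes tested (Benjamini-Hochberg), and a gene was called at an adjusted p of at most 0.05. Normalized CPM and RPKM use the TMM-scaled library size. Ratios of counts have 95% exact binomial intervals where a side held 10 counts or fewer. The reads carry no molecular identifiers, and replicates differed by 34.7 to 289 times the counting variance. Correlations use log2 CPM with a prior count of 2. The labels give no batch and no sex, and in 7 of the 8 groups the libraries differed in sex-linked genes. Whether replicate numbers pair libraries was read from the correlation of deviations from group means. Between TdTOSX single positive and double negative libraries of the same genotype and number all 4 pairs lay over 0.1 (0.112 to 0.595), so the numbers were taken to pair them, although wild type TdTOSX single positive replicate 2 was closer to double negative replicate 3 (0.430). Since TdTOSX single positive groups hold 2 libraries, whose deviations from their mean mirror each other, the 4 pairs are not independent. Between TdTOSX single positive and double positive libraries 3 of 4 such pairs lay over 0.1 (0.0993 to 0.155), just short of that rule, and fewer between the other populations, so no other libraries were taken as paired. The labels do not say what the numbers mark. The code was tested on simulated data.

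The BMP genes, the pathway and marker lists and the alternatives were chosen with earlier results of these data known. Besides the 9 genes, Ptprc, Cdh2 and Sp7 were named as checks of the labels. Of each pathway list the 3 called genes with the smallest adjusted p were named in each comparison of populations, or, with none called, the 2 with the highest mean. For each BMP gene tested the 2 genes with the largest r were named. Alternatives were voomWithQualityWeights (limma 3.58.1, the study's own method), DESeq2 1.42.0, RLE factors, no filter, the replicate number as a block, 1 genotype alone, leaving out both libraries that stand apart, and leaving out each of the 22 libraries. A block for the number in the CD45- cells alone and a term for sex-linked genes were chosen after seeing the data. Tables and plots used Python 3.11.15, numpy 2.4.6, pandas 2.3.3, scipy 1.17.1 and matplotlib 3.10.9.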

Additional observations from a re-analysis of the deposited data

How the results depend on the processing

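Between CD45- and CD45+ cells, 70 of 70 log2 fold changes of BMP genes under the alternatives kept their direction and their call, and 172 of 174 did so when 1 library was left out (the 2 exceptions were Bmp5 3.80 without TdTOSX single positive Cdh2-cKO replicate 2 and Bmp6 2.98 without TdTOSX single positive wild type replicate 2, neither called). In the other comparisons no BMP gene was called under any alternative, so a reversed direction there concerns differences that did not pass the test. For TdT+ against TdT- in CD45- cells the direction turned for Bmp4 0.11 and Bmp5 0.39 with wild type libraries alone, Grem1 -0.29 with Cdh2-cKO libraries alone and Grem1 -0.052 without both libraries that stand apart. Leaving out 1 library gave Bmp2 -0.91 to 0.12, Bmp4 -0.40 to 0.41, Gdf10 -1.67 to 2.22 and Grem1 -0.41 to 0.64, and without a change of direction Bmp1 0.24 to 0.87, Bmper 0.57 to 1.25, Bmp5 -1.88 to -0.39 and Bmp6 -3.95 to -0.50. In CD45+ cells it turned for Bmp4, at 0.62 with voom, 0.015 with the replicate block, 0.28 without both libraries and 1.10 with wild type alone, and leaving out 1 library gave Bmp2 -0.14 to 0.56 and Bmp4 -2.11 to 1.30, and in 1 direction Bmp1 -0.95 to -0.37, Bmp6 -3.10 to -0.41, Grem1 -1.34 to -0.25 and Bmper -3.15 to -1.27. Between genotypes in TdTOSX single positive cells it turned for Bmp6, at 0.99 with voom, 0.51 with the block and 0.093 with a term for sex-linked genes, and for Grem1, at -0.0061 with DESeq2 and -0.0053 with RLE factors, with 1 library out Bmp2 -1.35 to 0.40, Bmp6 -1.01 to 6.06 and Grem1 -0.79 to 1.08, and in 1 direction Bmp1 -1.29 to -0.18, Bmp4 -0.55 to -0.0010, Bmp5 -6.76 to -3.78 and Gdf10 -8.27 to -2.09, while Bmper lay at -1.26 or lower. In double negative cells it turned for Bmp2 0.20 and Bmp4 -0.50 with voom and Bmp1 -0.34 and Bmp4 -0.39 without both libraries, with 1 library out Bmp1 -0.34 to 0.55, Bmp2 -0.63 to 0.61, Bmp4 -0.39 to 1.02 and Bmper -0.95 to 0.16, and in 1 direction Bmp5 -2.96 to -2.01, Bmp6 0.51 to 1.44, Grem1 0.53 to 1.86 and Gdf10 -3.14 to -0.23. Where no direction turned, fold changes that moved by over 1.5 times under another alternative had log2 values, for TdT+ against TdT-, of Bmp6 -1.88 to -0.84 and Bmper 0.36 to 1.447 in CD45- cells and Bmp2 0.066 to 1.12, Bmp6 -2.19 to -0.17, Grem1 -1.20 to -0.13 and Bmper -4.39 to -0.034 in CD45+ cells. Between genotypes they were Bmp5 -5.10 to -3.9999 and Gdf10 -5.34 to -3.09 in TdTOSX single positive and Gdf10 -3.14 to -1.18 in double negative cells, and between CD45- and CD45+ cells Bmp5 2.63 to 6.59, Bmp6 3.84 to 5.35 and Gdf10 5.65 to 9.33. The cause was not tested.

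The number of genes called over all genes depended on the method outside the comparison of CD45- with CD45+ cells. For TdT+ against TdT- in CD45- cells it was 626 with voom, 984 with DESeq2, 93 without a filter, 130 with the block in all cells, 1312 with the block in CD45- cells alone, 1405 without both libraries and 20 to 812 with 1 library out, and the larger side turned from 122 higher and 193 lower to 174 and 120 with RLE factors, 363 and 263 with voom and 516 and 468 with DESeq2, which changes test and scaling together. In CD45+ cells it was 6 with DESeq2. Between genotypes in TdTOSX single positive cells it was 0 with voom, 134 with DESeq2, 77 without both libraries and 0 to 89 with 1 library out, in double negative cells 522 with DESeq2 and 0 to 603 with 1 library out, in double positive cells 1 and in CD45 single positive cells 26 with DESeq2. For the interaction it was 0 with voom, 558 with DESeq2, 2 with RLE factors, 101 without a filter, 0 with the block in all cells, 130 with the block in CD45- cells alone, 2 with a term for sex-linked genes, 2 without both libraries and 0 to 637 with 1 library out. The cause was not tested. Where leaving out a library left a group with 1 library, that library was taken to vary like the others. The block in CD45- cells and the term for sex-linked genes were chosen after seeing the data, and neither changed the call of a BMP gene. Bmp5 and Bmp6 rest on so few counts that depth limits their values.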
